A study of Mus musculus with 8 samples.

Results

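Clusters close to the ends of protein-coding genes were taken from the clusters of CpG positions that the authors compared between fixed and live mouse muscle stem cells. A cluster belonged to the class when it was under 400 bp long and its midpoint lay within 1000 bp of either outer end of a RefSeq protein-coding gene of GRCm38.p6. The class held 6836 of the 27878 listed clusters (24.5%) and covered 591803 bp in all. The other 21042 clusters held 20238 that were also under 400 bp, and 415 clusters near gene ends were left out because they were 400 bp or longer. The rule used position and length, and no methylation value.

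The study ran reduced representation bisulfite sequencing on 8 samples of sorted skeletal muscle stem cells, 4 fixed with 0.5% paraformaldehyde and 4 live. All 8 carried the Tg:Pax7-nGFP/+ transgene, in which nuclear green fluorescent protein marks Pax7-expressing cells, and each replicate came from its own animal. The series title speaks of fixation in situ, whereas its design text places fixation after the cells were isolated. No age is given in the sources used here, and neither values of single samples nor read depth nor expression are in the files used, so the identity of the cells could not be checked against markers.

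Most vertebrate gene starts of broadly expressed and developmental genes lie in CpG islands, stretches rich in CpG that are usually kept free of methylation, while CpG in gene bodies and at 3′ ends is usually methylated. Reduced representation bisulfite sequencing cuts DNA with MspI at CCGG and sequences the short fragments, so its reads gather where such sites are dense. A cluster is a listed stretch, from a single position to a run of neighbouring CpG positions. The lists show where the assay and the filters of the authors gave a testable region. They give no methylation level, and whether those filters depended on methylation is not stated in the sources used here.

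The sequences of 7 promoter windows show what the clusters look like at base level. Each runs from 250 bases before to 30 bases after a gene start annotated by RefSeq, is read 5′ to 3′ on the strand of its gene, and has the bases of listed clusters in capitals. Foxd3 (chr4:99656049-99656328, plus strand of GRCm38.p6) is shown as the gene with the most clusters. Pax7 (chr4:139832939-139833218, minus strand) is shown as the marker of muscle stem cells, at an annotated start inside the outer end of the gene. Rpl27a (chr7:109518945-109519224, plus strand) carries a cluster of a single position. Coro1a (chr7:126704191-126704470, minus strand, at a start inside the outer end) holds a whole cluster of 62 bp and part of another of 57 bp. Fes (chr7:80387917-80388196, minus strand) holds part of a 323 bp cluster, and a second of 135 bp lies just past the printed bases. Magix (chrX:7681222-7681501, minus strand) is among the windows with the fewest CpG that a cluster reached. Ece1 (chr4:137920543-137920822, plus strand) is no member of the class: its capitals are a region called as different between fixed and live cells, at an annotated start inside the gene.
Foxd3: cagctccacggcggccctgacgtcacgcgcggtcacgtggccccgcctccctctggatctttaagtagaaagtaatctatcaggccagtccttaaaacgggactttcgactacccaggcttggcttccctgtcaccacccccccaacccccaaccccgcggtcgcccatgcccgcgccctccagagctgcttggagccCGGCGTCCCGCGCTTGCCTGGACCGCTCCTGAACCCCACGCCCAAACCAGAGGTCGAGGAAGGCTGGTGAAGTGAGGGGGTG
Pax7: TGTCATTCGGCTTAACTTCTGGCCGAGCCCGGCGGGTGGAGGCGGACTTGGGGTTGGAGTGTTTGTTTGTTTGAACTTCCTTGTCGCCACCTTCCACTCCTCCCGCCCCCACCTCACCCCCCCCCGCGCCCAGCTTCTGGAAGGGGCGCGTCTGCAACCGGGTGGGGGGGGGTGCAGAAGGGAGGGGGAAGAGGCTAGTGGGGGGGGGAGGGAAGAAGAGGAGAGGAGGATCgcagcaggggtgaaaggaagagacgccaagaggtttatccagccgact
Rpl27a: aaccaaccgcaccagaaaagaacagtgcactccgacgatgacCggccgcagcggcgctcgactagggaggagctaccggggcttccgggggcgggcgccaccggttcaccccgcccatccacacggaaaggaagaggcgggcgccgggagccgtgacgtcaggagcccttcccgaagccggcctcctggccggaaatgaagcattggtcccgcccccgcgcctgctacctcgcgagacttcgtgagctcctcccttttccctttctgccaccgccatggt
Coro1a: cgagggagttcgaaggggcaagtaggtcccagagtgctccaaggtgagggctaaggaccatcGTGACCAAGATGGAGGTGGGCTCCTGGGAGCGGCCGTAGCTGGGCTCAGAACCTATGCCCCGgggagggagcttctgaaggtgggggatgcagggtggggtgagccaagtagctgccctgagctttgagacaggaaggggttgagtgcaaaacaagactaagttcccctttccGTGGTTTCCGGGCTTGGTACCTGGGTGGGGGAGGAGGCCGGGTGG
Fes: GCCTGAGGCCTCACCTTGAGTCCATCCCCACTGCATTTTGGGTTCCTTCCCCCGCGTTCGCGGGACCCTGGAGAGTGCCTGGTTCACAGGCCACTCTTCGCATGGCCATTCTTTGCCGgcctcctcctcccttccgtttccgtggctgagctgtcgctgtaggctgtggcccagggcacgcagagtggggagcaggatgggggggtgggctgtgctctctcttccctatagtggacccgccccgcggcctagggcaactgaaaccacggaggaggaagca
Magix: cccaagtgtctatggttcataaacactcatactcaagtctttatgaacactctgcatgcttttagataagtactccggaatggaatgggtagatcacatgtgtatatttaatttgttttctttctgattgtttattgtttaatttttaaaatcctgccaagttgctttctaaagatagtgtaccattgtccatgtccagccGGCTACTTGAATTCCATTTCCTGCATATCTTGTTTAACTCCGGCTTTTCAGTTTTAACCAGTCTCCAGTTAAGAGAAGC
Ece1: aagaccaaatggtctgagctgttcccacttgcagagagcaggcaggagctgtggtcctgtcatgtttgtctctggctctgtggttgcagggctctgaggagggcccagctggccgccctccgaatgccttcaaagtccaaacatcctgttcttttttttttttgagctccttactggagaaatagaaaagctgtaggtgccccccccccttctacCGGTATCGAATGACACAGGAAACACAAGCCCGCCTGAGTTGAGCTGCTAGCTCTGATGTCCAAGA
In the Foxd3 window 82 of 280 bases lay in a cluster, and in the Pax7 window 232 did. The Rpl27a cluster was a single C, the first base of a CpG in a CCGG, in a window with 30 CpG and 7 CCGG. The Magix window, at 36.4% GC, had 3 CpG in 280 bases and the Ece1 window, at 52.9% GC, had 5.

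None of the 6836 clusters was called different between fixed and live cells by the authors (0%, exact Clopper-Pearson 95% interval 0% to 0.0539%). That upper bound is from a 2-sided interval. The limit that a count of 0 allows by the 1-sided convention of 3 counts, here 3 of 6836 clusters, is 0.0439%. The background over all clusters was 21 of 27878, or 0.0753%, with an interval of 0.0466% to 0.115%. All 21 called regions lay among the other clusters under 400 bp, at 0.104% of 20238 (0.0642% to 0.159%). The interval of the class overlaps that of all clusters and lies under that of the other clusters under 400 bp. These intervals cover counting error only. No test over clusters was run, because clusters are not replicates.

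Of the 21 called regions, 3 lay less than 200 bp outside the window. The closest was at Pls3, which encodes the actin-bundling protein plastin 3, on chromosome X (chrX:75874084-75874217), with its midpoint 1031.5 bp inside the gene from its outer start. The authors' deposited table gives that region a difference of 18.4 percentage points and a p-value of 2.64e-11, and a distance of 357 bp from the transcript start it was assigned to. Pls3 also had a member of 146 bp at its start, which was not called. The region at Capn9, a calpain protease gene (chr8:124617510-124617604), lay 1174 bp inside the 3′ end, with a difference of -10.8 points and a p-value of 2.25e-07 in the authors' deposited table. A called region in Sema6c, a transmembrane semaphorin gene (chr3:95172835-95172902), lay 1181.5 bp inside the 3′ end, with a difference of -25.7 points and a p-value of 1.98e-08 in the authors' deposited table. Sema6c itself had 3 members at the same 3′ end, of 48, 300 and 160 bp, and Capn9 had none. Which of fixed and live cells a positive difference favours is not tied to the labels in the files, so no direction is given.

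A called region farther out bears on the class. Ece1, which encodes an endothelin-converting protease, had its called region (chr4:137920758-137920889, 132 bp) centred 30.5 bp from an annotated start inside the gene. The outer ends of genes do not take in such a start. This gene was picked after its values were seen. At the edge of the class, the farthest member lay at 1000 bp and the closest cluster outside at 1001.5 bp, with 192 members beyond 950 bp and 188 clusters between 1000 and 1050 bp.

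Members lay mostly at gene starts. The strand was known for 17491 of 21896 protein-coding genes (79.9%), which placed part of the members: 4579 were nearest to a start and 731 to a 3′ end, while 1526 had a nearest gene of unknown strand. Starts thus took 86.2% of the placed members (exact 95% interval 85.3% to 87.1%). The median distance was 317 bp from a start and 506 bp from a 3′ end. Within 100 bp of the end itself there were 839 members at starts, against 61 at 3′ ends.

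The position around a start was lopsided. Of the members at starts, 1236 (27.0%) lay upstream and 3339 downstream, inside the gene. The densest bin, from 100 to 200 bp downstream, held 29.6 members per 1000 stranded genes, against 12.1 in the bin from 100 to 200 bp upstream. At 3′ ends 535 of 731 members (73.2%) lay inside the gene and 196 beyond it, and the densest bin, 800 to 900 bp inside, held 4.29 per 1000 genes. Members therefore sat within the transcribed unit at both ends more often than outside it.

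**Figure D1:**
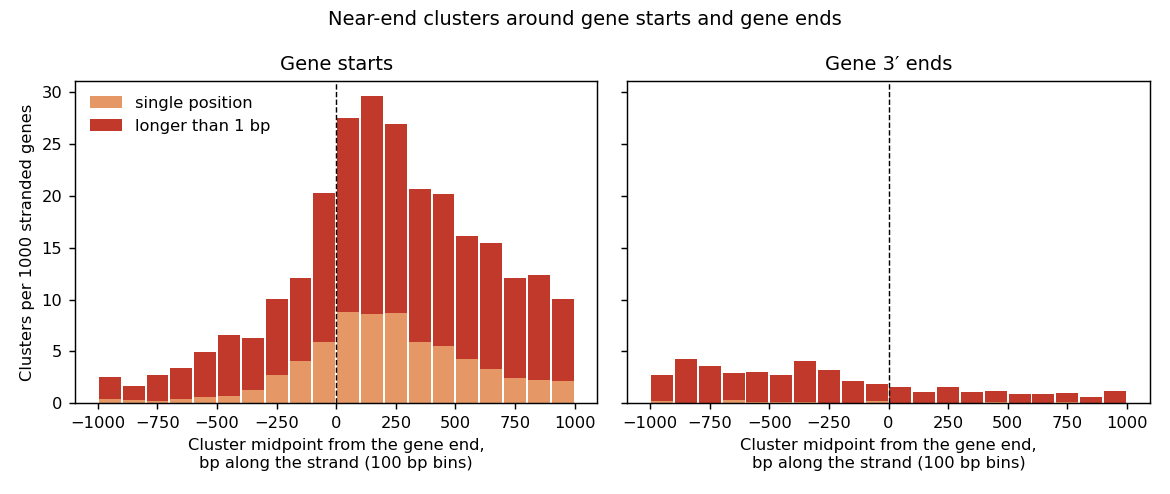
Near-end clusters per 1000 stranded protein-coding genes (vertical axis) by the distance of the cluster midpoint from the gene start (left) and from the 3′ end (right) in bp along the strand, in 100 bp bins, with single positions in orange and longer clusters in red. Starts peak at 29.6 per 1000 genes between 100 and 200 bp downstream, and no bin at 3′ ends passes 4.29.

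The plot of clusters by distance shows both single positions and longer clusters densest in the first 300 bp downstream of the start. The lower profile at 3′ ends leans to the inside of the gene and holds few single positions.

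Members were shorter than the other clusters. Their median length was 68 bp (quartiles 2 and 128 bp), against 92 bp (63 and 141 bp) for the other clusters under 400 bp. The difference lay mainly in the shortest clusters: 1540 members, 22.5% (21.5% to 23.5%), were a single position, against 933 of the other clusters, 4.61% (4.33% to 4.91%). Clusters of 2 to 10 bp made up 7.26% of the members and 1.66% of the others. Without single positions the medians were 88.5 bp for members and 96 bp for the others. Members at 3′ ends were not shorter, with a median of 96 bp (63 and 147.5 bp), or 102 bp without single positions. The median was 60 bp for members at starts and 70 bp for those at a gene of unknown strand.

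Single positions were mostly at starts. They made up 26.2% of the members at starts (24.9% to 27.5%) and 4.38% of those at 3′ ends (3.01% to 6.12%), a share close to that of the other clusters. Among members at starts, 30.7% were single within 100 bp of the start and 19.8% at 900 to 1000 bp. The longest members were a 399 bp cluster at Celsr3 (chr9:108826125-108826523), which encodes a planar polarity cadherin, and one of 399 bp at Rnf213 (chr11:119390521-119390919), which encodes a large ubiquitin ligase. The next, of 398 bp, lay at the 3′ end of Hand2 (chr8:57323570-57323967), a transcription factor gene of heart and limb development.

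**Figure D2:**
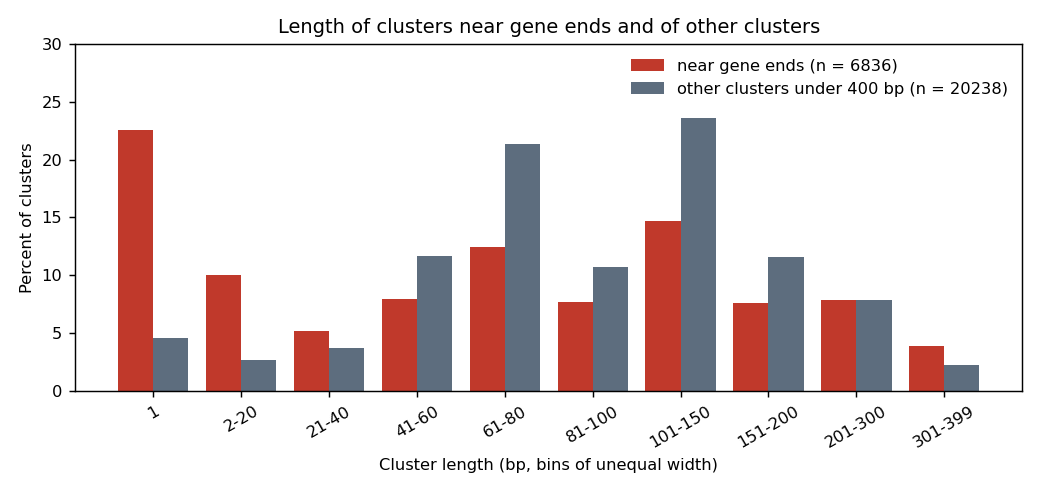
Percent of clusters (vertical axis) in each length bin in bp (bins of unequal width) for the 6836 clusters near gene ends (red) and the 20238 other clusters under 400 bp (grey). Single positions make up 22.5% of the near-end clusters and 4.61% of the others, while the bins from 41 to 200 bp hold larger shares of the others.

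The plot of lengths shows that the longest bins did not follow the middle ones: 7.88% of members and 7.83% of the others were 201 to 300 bp long, and 3.92% of members and 2.21% of the others were 301 to 399 bp long.

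The sequence around the starts was known for 14450 genes whose promoter row from RefSeq lay within 250 bp of the outer start, in a window of 300 bases from 250 before to 50 after it. The 3626 of these genes with a member at the start had a median of 22 CpG and 63.2% GC in the window, against 7 CpG and 52.7% GC for the 10824 genes without one. CCGG, the MspI site, was found in the window of 88.3% of genes with a member and 50.8% of those without, and in 60.2% of all. The hexamer GGGCGG on either strand, the core of a GC box, was found in 69.3% of windows with a member, 37.6% of those without and 45.6% of all. TATAAA on either strand, the core of a TATA box, was found in 6.18% of windows with a member, 17.0% of those without and 14.3% of all. A match of these letters is a description of the window and not a site of binding.

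Coverage followed the CpG content. A member at the start was found for 0.760% of the 1973 genes with at most 1 CpG in the window, for 23.7% of the 1279 genes with 7 to 10 CpG, and for 50.6% of the 1807 genes with 31 or more. Genes whose only members at the start were single positions had the richest windows, with a median of 24 CpG, against 21 for genes with a longer member there.

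**Figure D3:**
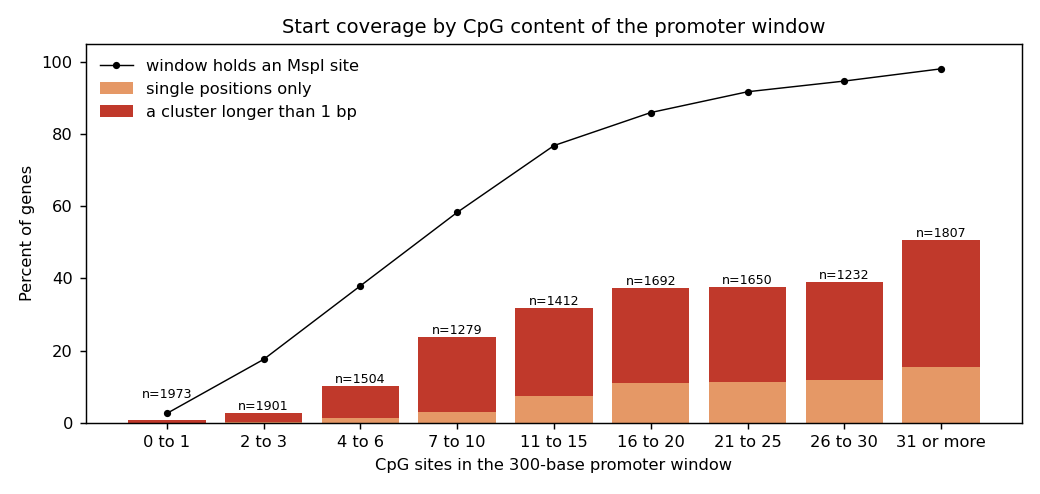
Percent of genes with a near-end cluster at the start (vertical axis, stacked bars: single positions only in orange, a longer cluster in red) by the number of CpG sites in the 300-base promoter window, with the number of genes above each bar, and the percent of windows that hold an MspI site (black line). Coverage is 0.760% at 0 to 1 CpG and 50.6% at 31 or more.

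The plot of coverage by CpG content also shows that coverage stayed below the share of windows with an MspI site in every bin. At 31 or more CpG, 98.1% of windows held that site.

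Cluster borders sat on CpG. Of the 869 members that lay wholly within a promoter window, 527 began on the C of a CpG, 340 on the G and 2 on neither. The 368 single positions among them fell on the C in 190 cases, on the G in 177 and on neither in 1, so both strands of the CpG were listed about equally. The single capital of the Rpl27a window is one of these. The 501 longer members held a median of 5 CpG and at most 45. A whole CCGG lay within the cluster and 3 bases on each side for 75.6% of longer members and 19.3% of single positions. The longer members, with a median of 57 bp, gave a longer stretch to search, so these shares cannot be compared.

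Members lay nearer to another listed cluster than other clusters did. The nearest listed cluster was a median of 6617 bp away for members and 12287.5 bp away for other clusters under 400 bp, and it was within 1000 bp for 31.6% of members and 17.1% of the others. No gap was under 100 bp. Single positions stood more alone than longer members, with a median of 13215.5 bp, against 5129 bp, to the nearest cluster. From a member to the next member on the chromosome the median was 96321.5 bp, and between neighbouring clusters of the rest it was 39431 bp.

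Within a gene, the 1464 pairs of neighbouring members were a median of 596.5 bp apart, and the 1096 pairs at the same end 456 bp. A pair within reach of several genes was counted once for each of them. The closest pairs were 100 bp apart, at Gm40881 on chromosome 12, at Gucy2e, which encodes a retinal guanylate cyclase, on chromosome 11, and at Tmem28 on chromosome X. The widest pairs spanned whole genes: 455917 bp at Cdh4, which encodes R-cadherin, 339890 bp at Gpc3, which encodes a glypican of the cell surface, and 310433 bp at Limch1.

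Neighbouring genes shared members. A total of 793 members (11.6%) lay within 1000 bp of the ends of 2 or more genes. Of these, 357 were within reach of 2 starts, 158 of a start and a 3′ end, and 50 of the 3′ ends of 2 genes. A further 220 involved a gene of unknown strand, and 8 lay at more than 2 genes of known strand. The extreme was a cluster of 315 bp in the protocadherin gamma locus on chromosome 18 (chr18:37842432-37842746), within reach of the shared ends of 24 annotated genes. Of gene pairs, LOC115486424 and T, which encodes the mesoderm factor Brachyury, shared 4 members on chromosome 17. Catsperz and Kcnk4, a potassium channel gene, shared 3 on chromosome 19, as did Ccdc106 and Zfp580 on chromosome 7 and 7 further pairs.

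Of 21896 protein-coding genes, 6204 (28.3%) had a member. Most had few: 4970 genes had 1, 1047 had 2, 149 had 3, 34 had 4, 3 had 5 and 1 had 6. Among the 17491 genes of known strand, 4334 (24.8%) had a member within reach of the start, 887 (5.07%) within reach of the 3′ end and 342 (1.96%) at both. In 1354 of the covered genes (21.8%) every member was a single position.

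The gene with 6 members was Foxd3, a forkhead factor of the neural crest and of pluripotent cells. Its members of 153, 56, 101, 395 and 93 bp lay around the start, with midpoints from 729 bp upstream to 876 bp downstream, and one of 55 bp lay 820 bp inside the 3′ end. The 101 bp member, centred 2 bp from the start, is the one in the printed window. Hoxa6, which patterns the anterior to posterior axis, had members of 270, 133 and 108 bp at its start and of 348 and 177 bp at its 3′ end. Nkx1-1, a homeobox gene, had members of 1, 346 and 2 bp at its start and of 151 and 105 bp at its 3′ end. Zfp503, a zinc finger gene of brain and limb development, had members of 1 and 35 bp at its start and of 127, 119 and 45 bp at its 3′ end. Of these 4 genes, all but Zfp503 had more members at the start than at the 3′ end.

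Among the 34 genes with 4 members, these were among the first by symbol. 5730507C01Rik had members of 147, 3, 147 and 50 bp, all at its start. Bcl11b, a zinc finger gene of T cell commitment, had short members of 6, 57, 112 and 15 bp, all at its start. C1ql4, which encodes a secreted C1q-like protein, had 157, 105 and 75 bp at its 3′ end and 196 bp at its start. Cbln1, which encodes a synapse organiser of the cerebellum, had members of 57, 65, 1 and 60 bp. Celf4, a gene of a neuronal RNA-binding protein, had members of 64, 74, 1 and 1 bp. Of these 5 genes, 5730507C01Rik is known by a clone name only.

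Gene families differed widely in how many of their genes had a member. A total of 44 families with 4202 genes were read from gene symbols, and 924 of those genes (22.0%) had a member, against 29.8% of genes outside the families. Without the sensory receptors the direction was the opposite, with 917 of 2701 family genes covered (34.0%). The share of 28 families lay above that of all genes. The exact 95% interval of 17 families lay above the share of all genes (28.3%) and that of 8 families below it. Such an interval covers counting error only, and genes of a family that lie side by side can share a cluster.

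Families that pattern the embryo stood at the top, with 122 of 166 genes (73.5%, 66.1% to 80.0%) and 2 or more members at 36.1% of their genes. Of the Hox genes 31 of 39 (79.5%) had a member, with 52 members in all. Hoxd9 had 4, and Hoxb2 and Hoxb6 had 3 each. Of the forkhead genes 32 of 44 (72.7%) did, with 58 members: beside Foxd3, Foxi3 had 4, and Foxb2 and Foxf1 had 3 each. Of the homeobox genes of the Lhx, Nkx, Dlx and Irx series and of the series that holds Six6, 30 of 40 (75.0%) did, with Dlx6 and Six6 at 4 each and Irx1 at 3. Single positions made up 11.2% of the members of these families, fewer than the 22.5% of the whole class.

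Of the Sox genes 14 of 19 (73.7%) had a member. Sox3, an X-linked gene of the hypothalamus and gonad, had 4, and Sox7, Sox12 and Sox18 had 2 each, while Sox8, Sox11, Sox13, Sox15 and Sox30 had none. Of the T-box genes 10 of 15 (66.7%) did, led by Tbx2 with 4 and Tbx1 with 3, followed by Tbx15 and Tbx21 with 2 each. Tbr1, Tbx18, Tbx19, Tbx20 and Tbx22 had none. Of the Pax genes 5 of 9 (55.6%) did: Pax2 had 3, Pax6 had 2, and Pax1, Pax7 and Pax9 had 1 each, while Pax3, Pax4, Pax5 and Pax8 had none.

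Signalling families came next, with 87 of 175 genes (49.7%, 42.1% to 57.4%). Dual-specificity phosphatases, some of which switch off MAP kinases, had a member at 15 of 24 genes (62.5%), with 2 each at Dusp5, Dusp8, Dusp15 and Dusp22. Wnt ligands and their Frizzled receptors had one at 18 of 29 (62.1%). Fzd9 had 3 there, and Fzd10, Wnt3 and Wnt10b had 2 each. Fibroblast growth factors and their receptors had one at 15 of 27 (55.6%), led by Fgf11 with 3, and Fgf4, Fgf17 and Fgf18 had 2 each. Semaphorins and plexins, guidance cues and their receptors, had one at 13 of 29 (44.8%), where Sema6c had 3 and Sema4g, Sema5b and Sema6d had 2 each. Cyclins and cyclin-dependent kinases had one at 18 of 45, with 2 at Ccny and 1 each at Ccnd1, Ccnd2 and Ccne1, and 9 of their 19 members were single positions. Genes with Bmp and Gdf symbols had one at 8 of 21 (38.1%), with 2 each at Bmp1 and Gdf7 and 1 each at Bmp7 and Bmp8a. They were matched by symbol, and Bmp1 encodes a protease and no ligand.

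Housekeeping families reached 36.0% together (178 of 494 genes, 31.8% to 40.4%), and their members were short, with a median of 47 bp and 27.8% single positions. RNA polymerase subunits were covered at 16 of 28 genes (57.1%), where Polr1c, Polr1e, Polr2f and Polr3g had 2 members each. Translation initiation factors were covered at 28 of 56, with 2 each at Eif1b, Eif3d, Eif3l and Eif4e3. Cytosolic ribosomal proteins were covered at 37 of 83 (44.6%): Rpl10a, Rpl27a, Rpl35 and Rpl38 had 2 each, and both of those at Rpl27a were single positions. Mitochondrial ribosomal proteins were covered at 18 of 78 (23.1%), with 2 each at Mrpl43, Mrps7 and Mrps24 and 1 at Mrpl14. Nuclear-encoded subunits of respiratory complex I were covered at 11 of 40 (27.5%), with 3 at Ndufb11, 2 at Ndufa13 and 1 each at Ndufa6 and Ndufa10. Proteasome subunits were covered at 9 of 44 (20.5%), with 1 each at Psma5, Psma7, Psma8 and Psmb5. The intervals of the cytosolic (33.7% to 55.9%) and the mitochondrial ribosomal family (14.3% to 34.0%) overlapped slightly.

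Of the genes that attach or remove ubiquitin, the ubiquitin-specific proteases were covered at 19 of 50 (38.0%), with 2 members each at Usp5, Usp9x, Usp27x and Usp53. F-box proteins, which choose the targets of ubiquitin ligases, were covered at 28 of 78 (35.9%). Fbxl8 had 3 there, and Fbxl21 and Fbxo2 had 2 each. Ubiquitin-conjugating enzymes were covered at 12 of 37 (32.4%), with 2 at Ube2m and 1 each at Ube2d3, Ube2e1 and Ube2f, and 7 of their 13 members were single positions. Rab proteins, the switches of vesicle traffic, were covered at 27 of 59 (45.8%), with 2 each at Rab4a, Rab34, Rab37 and Rab40b.

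Transport families, with the Tmem symbol series counted among them, stood at 36.2% (262 of 723 genes, 32.7% to 39.9%). The 235 genes of that series are not all known as carriers or channels. Calcium channel subunits were covered at 12 of 26 (46.2%), with 2 each at Cacna2d3, Cacnb3 and Cacnb4 and 1 at Cacna1g. Potassium channels were covered at 40 of 93 (43.0%), with 4 at Kcnk4, 3 at Kcnk15 and 2 at Kcna7. Genes of the Tmem symbol series were covered at 85 of 235 (36.2%), with 4 at Tmem28 and 3 each at Tmem200c, Tmem259 and Tmem267. Solute carriers were covered at 125 of 369 (33.9%): Slc5a5, the iodide carrier of the thyroid, had 4, and Slc6a17, Slc12a9 and Slc18a3 had 3 each.

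The zinc finger families with Zfp, Zbtb and Kruppel-like symbols lay close to all genes, at 127 of 451 (28.2%, 24.1% to 32.6%). Within them, Kruppel-like factors were covered at 9 of 17 (52.9%), with 3 at Klf12, 2 at Klf16 and 1 each at Klf1 and Klf10. Zbtb genes were covered at 18 of 40 (45.0%), with 3 at Zbtb7c and 2 each at Zbtb7a, Zbtb16 and Zbtb33. The large Zfp series was covered at 100 of 394 (25.4%), led by Zfp503 with 5 and Zfp580 with 4, then Zfp703 with 3 and Zfp119b with 2. Chromatin families were covered at 24 of 123 genes (19.5%). Lysine demethylases and methyltransferases were covered at 13 of 42, with 3 at Kdm6b and 2 each at Kdm2a, Kdm8 and Kmt2b. Histone deacetylases and sirtuins were covered at 5 of 18: Hdac6 had 3, and Hdac1, Sirt1, Sirt5 and Sirt7 had 1 each. The clustered histone genes were covered at 6 of 63 (9.52%), which shared 4 members. H1f1, H1f3, H2ac1 and H2bc1 had 1 each.

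Matrix and adhesion families stood at 50 of 166 genes (30.1%). Protocadherins were covered at 29 of 69 (42.0%), but through 24 clusters only, since those genes lie side by side. Pcdhga10 was within reach of 4, Pcdhga5 of 3, and Pcdh1 and Pcdh19 of 2 each. Collagen chains were covered at 10 of 44 (22.7%), with 2 each at Col2a1, Col4a5 and Col9a2 and 1 at Col11a2. Adam and Adamts proteases were covered at 11 of 53 (20.8%), with 1 each at Adam2, Adam10, Adam15 and Adam23. Keratins were covered at 17 of 49 (34.7%), with 2 each at Krt18 and Krt87 and 1 each at Krt1 and Krt17, whereas of 56 keratin-associated proteins Krtap17-1 alone was covered.

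The classes with the lowest shares were the sensory, immune and metabolic families. Sensory receptors had a member at 7 of 1501 genes (0.466%, 0.188% to 0.958%). Of 1110 olfactory receptors, Olfr279, Olfr332 and Olfr1358 had 1 each. Of 353 vomeronasal receptors, Vmn2r29 had 3 and Vmn1r4 and Vmn1r65 had 1 each, and of 38 taste receptors Tas1r1 had 1. None of 71 defensins, antimicrobial peptides, had one (0%, 0% to 5.06%). Chemokines were covered at 4 of 37: Cxcl14 had 2, and Ccl27a, Cxcl2 and Cxcl10 had 1 each. Interleukins were covered at 6 of 33, with 2 at Il17d and 1 each at Il12a, Il16 and Il17b. Cytochrome P450 enzymes were covered at 12 of 98 (12.2%), with 2 each at Cyp24a1 and Cyp26a1, which break down vitamin D and retinoic acid, and 1 each at Cyp11a1 and Cyp20a1. With sensory receptors left out, 30.4% of the remaining 20395 genes were covered.

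**Figure D4:**
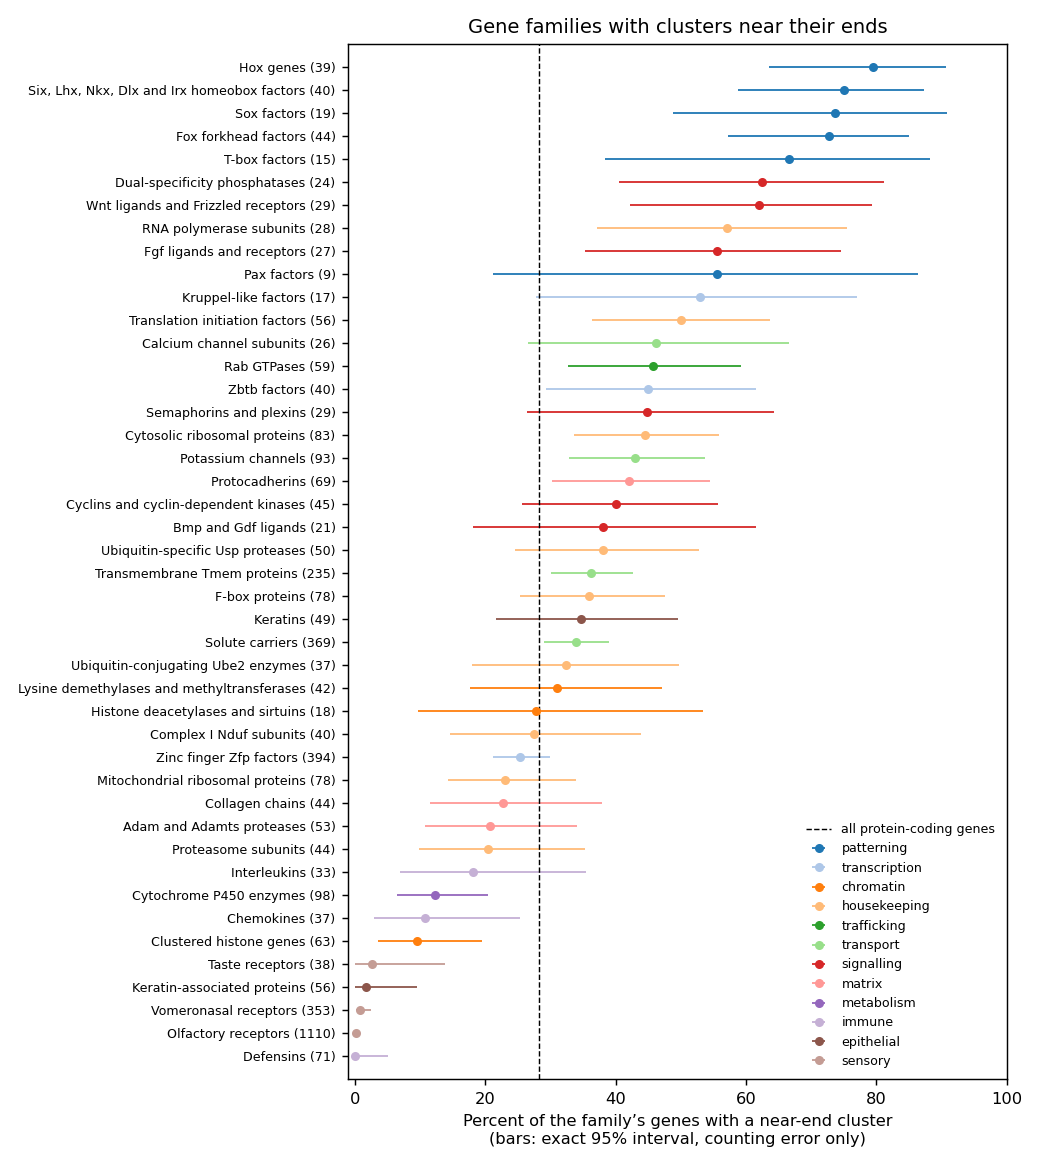
Percent of the genes of each of 44 families with a near-end cluster (horizontal axis; points, with the exact 95% interval for counting error as bars; number of genes in brackets; colours mark the class of the family), with the share of all protein-coding genes, 28.3%, as a dashed line. Hox genes stand at the top with 79.5%, and olfactory receptors (0.270%) and defensins (0%) at the bottom.

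The plot of families shows no break between classes, and the patterning families other than Pax stand above all the rest.

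Among 6 factors that mark or commit muscle stem cells, 1 had a member, where 28.3% of all protein-coding genes did, so the count says nothing particular about them. Pax7, which marks these cells and whose reporter they carry, had 1 member of 336 bp at its start (chr4:139832987-139833322), the one in capitals in the printed window, and it was not called. Pax3, its paralogue, had none. The myogenic regulatory factors Myod1, Myf5, Myf6 and Myog, which drive commitment and differentiation, had none either. A gene without a member had no listed cluster of this kind at its ends, which cannot be read as a state of its methylation.

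Of the Mef2 factors, which work with the myogenic factors, and the class IIa histone deacetylases that hold them back, Mef2b and Mef2d had a single position each. Mef2a, Mef2c, Hdac4, Hdac5, Hdac7 and Hdac9 had none. Notch receptors and ligands, which keep muscle stem cells quiescent, had 9 members at 6 of 9 genes. Over all protein-coding genes 28.3% had a member, and sets as small as these were not tested against that share. The receptors Notch3 and Notch4 had 1 each, of 324 bp at the start and of 64 bp at the 3′ end, and Notch1 and Notch2 had none. Among the ligands, Dll3 had members of 132, 154 and 57 bp, Jag2 of 65 and 168 bp, Dll1 of 105 bp and Dll4 of 58 bp, and Jag1 had none. Of the Notch target genes, Hes1 had members of 1 and 71 bp, Hes5 of 123 bp, Hey1 of 1 bp and Heyl of 89 bp, and Hey2 had none.

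Genes of the AP-1 and Egr families, several of which switch on within minutes when cells are disturbed, had 9 members at 7 of 11 genes. Fosl1 had members of 207 and 165 bp. Fosb, Fosl2, Junb, Jund and Egr3 each had 1, a single position in every case, and Egr4 had members of 7 and 93 bp. Fos, Jun, Egr1 and Egr2 had none. Of the genes that write and remove DNA methylation, Tet3 had 1 single position, and Dnmt1, Dnmt3a, Dnmt3b, Dnmt3l, Tet1 and Tet2 had none. The share over all protein-coding genes was 28.3%, and neither of these small sets was tested against it.

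Chromosomes differed in how many members they held for their genes. Over the genome there were 31.2 members per 100 protein-coding genes, sensory receptor genes included. Chromosome X had the most, 45.1, followed by chromosomes 15 with 42.5 and 12 with 40.8. Chromosome 7 had the fewest of the autosomes and X, 24.8, but it carries 417 sensory receptor genes, and without them it had 31.2. That value cannot be set against the genome value, which counts sensory receptor genes. With those genes left out on every chromosome, chromosome 14 had the fewest, 27.6. Chromosome 2, with 288 sensory receptor genes, had 29.0 with them and 34.5 without. In a 2000 bp window chromosome 15 had the most, 59.5, and chromosome 16 the fewest, 33.6. As a share of all listed clusters on an autosome or X, members ranged from 20.0% on chromosome 5 to 38.5% (35.6% to 41.4%) on chromosome X.

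Members on chromosome X also differed in length. Only 5 of the 436 members there were a single position (1.15%), against 1535 of 6394 on autosomes (24.0%). The 5 lay at the starts of Brwd3, Ddx3x, which encodes an RNA helicase, Gpr173, Irs4, which encodes an adaptor of insulin receptor signalling, and Lage3. The median length was 130 bp on X and 64 bp on autosomes, and 26.8% of X members were 200 bp or longer, against 10.9% on autosomes. Among other clusters under 400 bp the gap was small, with 1.87% single positions and a median of 94 bp on X, and 4.70% and 92 bp on autosomes. On each of the 19 autosomes single positions were a larger share of members than of other clusters, and on X they were not. Y and M held no single positions in either set.

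Covered X genes had more members each. On X, 32.7% of 966 genes were covered and 13.0% had 2 or more members, against 28.5% and 5.36% of 20661 autosomal genes. Sox3, Efnb1, which encodes an ephrin ligand, and Tmem28 had 4 each, with 591 bp at Sox3, 451 bp at Efnb1 and 423 bp at Tmem28 in all. Gpc3 had 3 members with 696 bp and Foxo4, a forkhead factor downstream of insulin signalling, had 3 with 612 bp. The mitochondrial and Y chromosomes held few: ND1, COX1 and CYTB, genes of the respiratory chain, had 4 members of 70, 163, 201 and 88 bp, and the Y genes Gm21753 and Gm52481 had 1 each, of 44 and 76 bp.

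**Figure D5:**
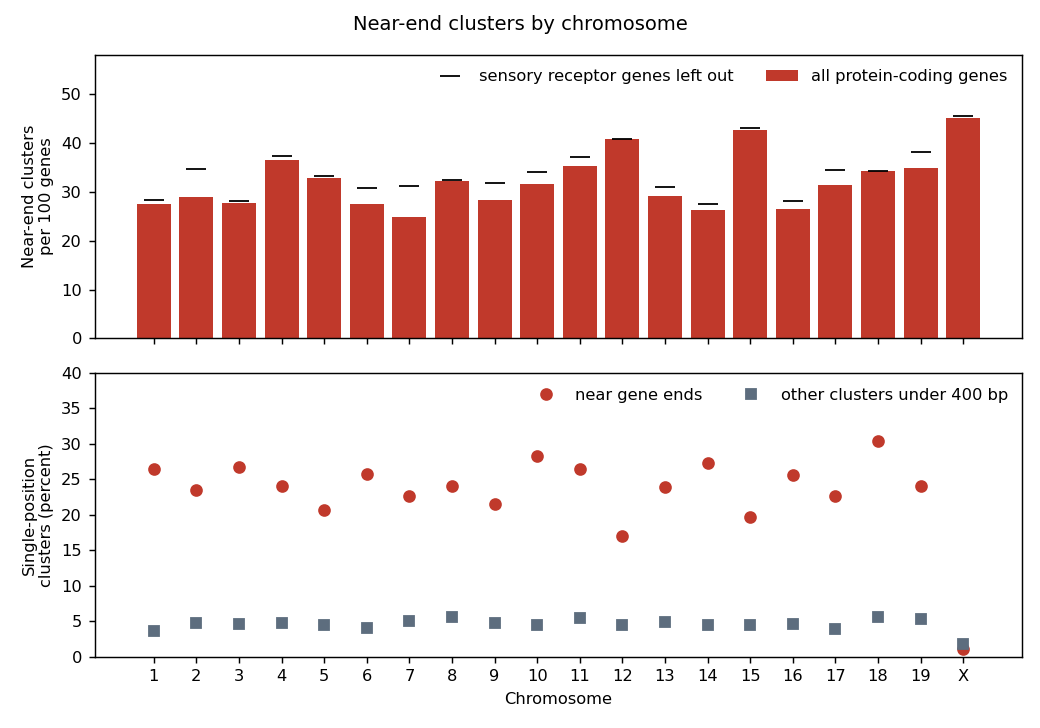
Near-end clusters per 100 protein-coding genes by chromosome (top, bars; black marks leave out sensory receptor genes) and the percent of clusters that are a single position (bottom) for near-end clusters (red circles) and other clusters under 400 bp (grey squares). Chromosome X has the most near-end clusters per gene, 45.1 per 100, and the lowest share of single positions, 1.15%.

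The plot by chromosome shows that near-end single positions made up 17.0% to 30.5% on every autosome, away from the X value.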

How the data were processed

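Reduced representation bisulfite sequencing was run on 8 samples, 4 fixed and 4 live, grouped by their treatment label. The submitters' processing notes list, without their roles, Bismark 0.14.4, ChIPseeker 1.12.1 and Trim Galore 0.4, and mm10 as the build. Which tool called regions, and with what coverage filter and threshold, is not stated in these sources. Deposited were lists of 21 significant and 27857 not significant clusters and a table of the 21 regions. The p-values quoted come from the authors' deposited table, which does not say if they were adjusted. The score used from the authors' deposited table is a signed median methylation difference, a fraction multiplied here into percentage points. Its 2 columns of group levels carry names that match neither treatment and were not used. Depth per cluster is unknown.

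Both lists were pooled, and each cluster was taken from its start plus 1 to its end and assigned by its midpoint to the ends of RefSeq genes of GRCm38.p6, the build mm10 names. Strand came from the RefSeq promoter table, for 79.9% of genes. The assignment was checked on simulated data. Intervals are exact Clopper-Pearson at 95%, for counting error only. The tools were scipy 1.17.1, numpy 2.4.6 and pandas 2.3.3 under Python 3.11.15, with figures by matplotlib 3.10.9.

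The members, families and lists were chosen with earlier results of these data known. Families were read from symbols, and the histone symbols were adapted once the reference was seen. Genes named are those of called regions up to 200 bp outside the window, the 10 with the most members, up to 4 per family, all where a family had 5 or fewer covered or uncovered genes, those at the 3 closest and widest pairs and the 3 longest members, and the 3 gene pairs sharing most. Of the promoter windows shown, Coro1a, Fes and Magix follow a rule and the others were added after values were seen, as were the genes named singly on chromosome X. Some genes that the rule names are not reported here. Chromosome 18 gave no sequence.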

Additional observations from a re-analysis of the deposited data

How the results depend on the processing

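The window and the length limit set the counts. With a 500 bp window there were 4492 clusters, 20.2% of genes were covered, 89.8% of placed clusters lay at starts and the median gap between neighbours was 167701 bp. With a 2000 bp window the last 3 values were 34.4%, 80.5% and 59946 bp. The share of genes was 29.7% with no length limit, 25.7% under 200 bp, 22.2% without single positions and 29.8% without predicted and clone-based genes. The start share was 87.3% for clusters near 1 gene end only. The count of called clusters, 0 at 1000 bp, was 3 at 2000 bp and 1 when any base could lie in the window. When starts inside genes were added, a choice made after the data were seen, it was 1 of 7877. Other choices added after the data were seen concern the share of single positions, which was 26.2% at 500 bp, 19.1% at 2000 bp, 25.6% under 200 bp and 24.0% on autosomes. The cause was not tested for any of these. Patterning families stood highest and sensory families lowest in all 3 windows. Chromosome X led at 500 and 1000 bp, and chromosome 15 at 2000 bp with 59.5 per 100 genes. Chromosome 7 was lowest at 500 and 1000 bp, and chromosome 16 at 2000 bp with 33.6.

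No paired analysis was possible because clusters carry no values of single samples, which also prevented leaving out any replicate. The lists name testable clusters, so the absence of a cluster at a gene cannot be read as a state of its methylation. Genes of unknown strand, 20.1% of all, took no part in the start and end counts. The midpoint rule measures to the outer ends of a gene and passes over starts inside it.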

Other observations

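Ahead of the sorted part of the not significant list stand 73 clusters. Of these, 28 (38.4%, exact 95% interval 27.2% to 50.5%) lay near the ends of protein-coding genes, against 24.5% of all listed clusters. Of the 28, 19 lay at a start, 1 at a 3′ end, 8 at a gene of unknown strand, 2 were a single position and 7 were on chromosome 4. In the whole class of 6836, 4579 lay at a start, 731 at a 3′ end and 1526 at a gene of unknown strand. The class held 1540 single positions and 483 members on chromosome 4. Against a median length of 68 bp in the class, the 28 had 71.5 bp. Among them were a 345 bp cluster at the start of Chd5, which encodes a chromatin remodeller, a 67 bp cluster at the start of Cdc20, an activator of the anaphase-promoting complex, and an 84 bp cluster at the start of Bmp8a. At 3′ ends the single case was a 61 bp cluster at Arf5, which encodes a small GTPase of the Golgi. These genes were picked after their values were seen. The sources do not say what sets the 73 clusters apart.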
